A study of Rattus norvegicus with 17 samples.

Results

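The genes described here are 40 genes of mitosis and chromosome segregation, chosen as a list of gene symbols and read from the rows annotated to exactly 1 of those symbols. Of the 40, 35 had such a row among the 14506 genes of the arrays. The expression of Cenpe, Cenpf, Ncapg, Ncapd2 and Mki67 was therefore not analysed here. Where a gene had several rows, the one with the highest mean over the 17 arrays was taken. RNA of CD4+ T cells, the helper T cells, was hybridized to Affymetrix rat gene arrays, 1 for each sample. The cells came from lymph nodes of age-matched female rats of the inbred strain Dark Agouti (DA) and were isolated by FACS 7 days after immunization with myelin oligodendrocyte glycoprotein (MOG), which was used to induce EAE, an autoimmune inflammation of the central nervous system that serves as a model of multiple sclerosis. The diets, begun 5 weeks ahead of immunization and kept up throughout, held 0 IU of vitamin D (deprived, on 5 arrays), 2 IU (regular, on 6 arrays) or 10 IU (supplemented, on 6 arrays). All rats were immunized, so none of the diets has an unimmunized counterpart here, and the sources used here do not say to how much feed an IU value applies.

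A dividing cell condenses its replicated chromosomes, attaches them to the spindle through kinetochores, waits at the spindle checkpoint until all are attached, and then separates them and splits. Cyclin B bound to the kinase Cdk1 drives entry into mitosis, and the anaphase-promoting complex ends it by marking cyclin B and securin for destruction. Resting T cells hold little mRNA of most of these genes, and T cells activated by antigen in a draining lymph node divide and make them.

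Many genes of this kind carry 2 short elements in their promoters, the cell cycle genes homology region (CHR, with the core TTTGAA or TTTAAA) and the CCAAT box. Stretches of 120 bases before the annotated start are shown for 6 members that were lower in the supplemented diet than in the regular diet (Cdk1, Ccnb2, Ccnb1, Kif23, Prc1 and Top2a) and for 2 that did not pass the test (Cks2 and Cdc20), so that the elements can be read in both. They come from RefSeq with build GRCr8 and are written 5′ to 3′ on the strand of the gene. Capitals mark the hexamer TTTGAA (read as TTCAAA where it lies on the other strand), the hexamer TTTAAA, which reads alike on both strands, and the box CCAAT (read as ATTGG on the other strand).
Cdk1 (chr20:19265173-19265292, plus strand): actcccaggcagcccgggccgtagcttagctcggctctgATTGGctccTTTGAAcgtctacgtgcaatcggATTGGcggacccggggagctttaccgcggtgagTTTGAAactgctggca
Ccnb2 (chr8:79981659-79981778, minus strand): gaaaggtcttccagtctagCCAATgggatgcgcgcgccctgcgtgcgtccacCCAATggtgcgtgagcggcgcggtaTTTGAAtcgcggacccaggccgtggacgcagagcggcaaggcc
Ccnb1 (chr2:33655226-33655345, minus strand): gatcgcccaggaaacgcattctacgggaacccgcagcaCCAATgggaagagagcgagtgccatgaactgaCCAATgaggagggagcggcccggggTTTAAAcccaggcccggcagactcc
Kif23 (chr8:71320585-71320704, minus strand): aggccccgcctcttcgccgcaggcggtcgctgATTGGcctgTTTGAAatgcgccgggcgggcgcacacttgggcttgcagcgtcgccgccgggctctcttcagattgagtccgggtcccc
Prc1 (chr1:143659361-143659480, plus strand): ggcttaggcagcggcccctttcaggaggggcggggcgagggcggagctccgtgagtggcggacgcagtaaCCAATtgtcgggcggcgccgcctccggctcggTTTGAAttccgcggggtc
Top2a (chr10:84473094-84473213, minus strand): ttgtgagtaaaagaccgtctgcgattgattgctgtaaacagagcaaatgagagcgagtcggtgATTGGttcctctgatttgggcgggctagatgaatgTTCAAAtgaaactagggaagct
Cks2 (chr17:13727520-13727639, minus strand): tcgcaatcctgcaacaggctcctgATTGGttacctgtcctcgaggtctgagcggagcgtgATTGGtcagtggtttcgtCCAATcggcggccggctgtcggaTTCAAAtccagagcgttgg
Cdc20 (chr5:137255800-137255919, minus strand): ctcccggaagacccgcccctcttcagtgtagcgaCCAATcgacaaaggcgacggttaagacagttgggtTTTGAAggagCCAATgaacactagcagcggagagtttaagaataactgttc

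The motif nearest the start of Ccnb1 was TTTAAA, 25 bases before it, and its CCAAT boxes lay 82 and 50 bases before the start. In Ccnb2 TTTGAA lay 43 bases before the start, with CCAAT boxes at 101 and 68 bases. Searched on both strands in windows of 300 bases (250 before to 50 after the start), TTTGAA was present in 23 of the 35 member windows (65.7%), against 18.3% of the 33469 windows of all genes. TTTAAA was present in 12 (34.3%), against 13.6% of all windows, and CCAAT in 27 (77.1%), against 37.5%. At least 1 of the hexamers together with CCAAT was found in 23 member windows (65.7%) and in 11.3% of all windows. These 35 windows belong to 34 members, since Kif2c had 2, and 6 members had no window. Of the 18 windows of members lower in the supplemented than in the regular diet, 15 held a hexamer and 13 a CCAAT box. Of the 8 windows of members that did not pass that test, 7 held a hexamer and 5 a CCAAT box. The other 9 windows belong to members whose expression was not tested, among them Cenpe, Cenpf, Ncapg, Ncapd2 and Mki67. Of these 9 windows, 8 held a hexamer and 9 a CCAAT box. The letters were thus present in lower members and in members that did not pass, and a match describes the sequence only.

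Values are deposited log2 expression values, so a difference of 1 is a 2-fold difference in level. Each difference is given with the standard error (SE) of one limma model over the 3 diets, and a gene is called lower or higher where its p-value, adjusted with Benjamini-Hochberg over all 10879 genes tested, is below 0.05. The genes tested are those outside the lowest 25% by mean level, which kept 31 members and left out Nek2, Ttk, Kif20a and Ect2. The labels call the arrays of a diet biological replicates without saying more, so a p-value here weighs a difference against the spread between those arrays. The T cell genes were bright, with Cd4 at 9.95 and Cd3d at 11.83 on average, above 95.5% and 99.5% of genes. The mean of 9 CD4+ T cell markers ran from 10.34 to 10.55 on deprived arrays, from 10.37 to 10.56 on regular arrays and from 10.07 to 10.32 on supplemented arrays, so the supplemented arrays lay below the others. The spread of an array (the SD over the log2 values of all its transcript clusters) ran from 2.027 to 2.073 on deprived, from 2.001 to 2.063 on regular and from 1.908 to 1.972 on supplemented arrays. No supplemented array overlapped the other diets in spread.

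The first comparison set the supplemented diet against the regular diet. Of the 31 members tested, 20 were lower in the supplemented diet, none was higher and 11 did not pass, where 33.7% of all genes tested were called, 22.9% lower and 10.8% higher. The median difference of the members was -0.38, against 0.00 for all genes, and 29 of the 31 had a negative sign, against 5429 of the 10879 genes. Differences beyond 0.5 on the log2 scale were found for 8 members (Top2a, Tpx2, Nuf2, Bub1, Stmn1, Kif11, Cdk1 and Prc1), all of them lower. In a bulk sample, fewer dividing cells and less of these mRNAs per cell cannot be told apart. With array spread as a covariate in the limma fit, none of the members was called and 2 had an unadjusted p below 0.05, with a member median of -0.22. None of all genes tested was called in that fit either, and 1192 had an unadjusted p below 0.05.

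**Figure D1:**
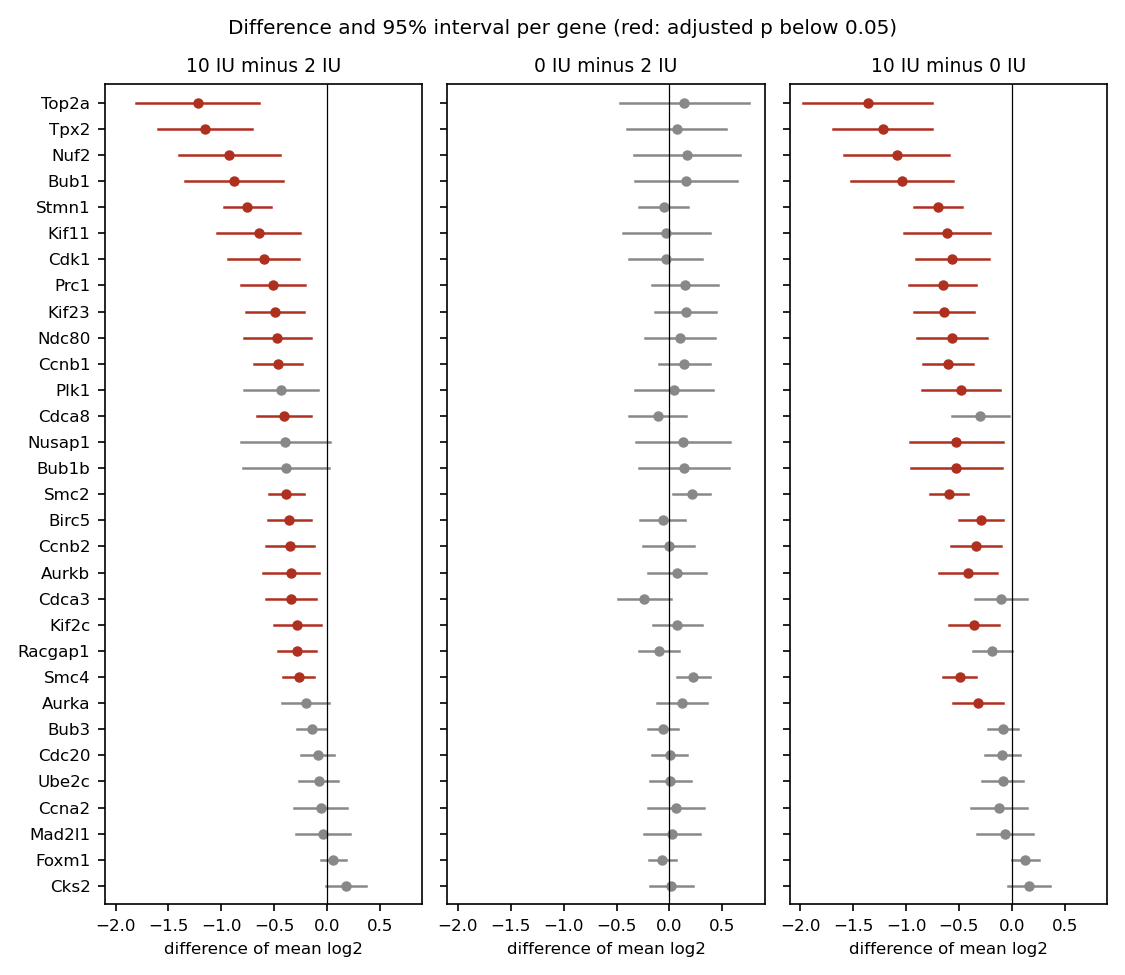
Difference of mean log2 expression (horizontal axis) for each of the 31 members tested, ordered by the first panel, with 95% confidence intervals from limma, in panels for supplemented minus regular, deprived minus regular and supplemented minus deprived; red points passed the adjusted threshold and grey points did not. Red points lie left of 0 for 20 members in the first panel and for 21 in the last, and no member is red in deprived minus regular.

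Cyclins, Cdk1 and their partners come first. Of the 7 members tested, 4 were lower in the supplemented than in the regular diet, and 3 did not pass. Among genes of like level, a share explained below with the other genes of the pathway, 4.72% were lower. Ccnb1, cyclin B1, had log2 values of 5.98, 6.28 and 6.66 (lowest, median, highest) on 6 supplemented arrays, and 6.44, 6.76 and 7.04 on 6 regular arrays. Of the supplemented arrays 4 lay below every regular array, so the diets overlapped in part. The difference of Ccnb1 was -0.46 (SE 0.11, adjusted p = 0.00292 in limma), a level 72.6% of that in the regular diet. Ccnb2, cyclin B2, the brightest of these, had 6.51, 6.60 and 6.86 on supplemented arrays and 6.74, 6.98 and 7.24 on regular arrays. All 6 supplemented arrays lay below the regular mean and 5 below every regular array, with a difference of -0.35 (SE 0.11, adjusted p = 0.0186). Cdk1, the kinase that both cyclins switch on, differed by -0.60 (SE 0.16, adjusted p = 0.00651). Cdca3, a trigger of mitotic entry, differed by -0.34 (SE 0.11, adjusted p = 0.0271). Cdca3 did not pass without supplemented replicate 4, 5 or 6 or regular replicate 2 or 4, with the adjusted p highest, at 0.077, without supplemented replicate 5.

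Ccna2, cyclin A2, did not pass, with a difference of -0.06 (95% interval -0.31 to 0.19). Foxm1, the transcription factor of many late cell cycle genes, had 0.06 (95% interval -0.06 to 0.18), and Cks2, a Cdk-binding protein, had 0.18 (95% interval -0.01 to 0.37). Foxm1 and Cks2 were the members with a positive sign. For Foxm1 the 6 supplemented arrays lay between 6.35 and 6.57 and the 6 regular arrays between 6.33 and 6.54, which is close to complete overlap.

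Plk1 and Aurka, mitotic kinases that mature centrosomes and build the spindle, did not pass against the regular diet. Plk1 had 6.70, 6.79 and 7.28 on supplemented arrays, and 6.86, 7.24 and 7.83 on regular arrays. Of the supplemented arrays 5 lay below every regular one. Its difference was -0.43 (SE 0.17, adjusted p = 0.0529), just above the threshold, and it passed in 5 of the 17 fits that left out 1 array, with adjusted p = 0.0225 without supplemented replicate 3, the array highest in Plk1 among the supplemented ones. Aurka had -0.20 (SE 0.11, adjusted p = 0.15). Nek2, a kinase that splits centrosomes, lay below the level filter, with a mean of 4.85.

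The chromosomal passenger complex, which corrects faulty attachments and helps cytokinesis, was lower in all 3 of the members measured. Of genes of like level 5.2% were lower. Birc5, survivin, had 6.43, 6.58 and 6.89 on supplemented arrays and 6.67, 6.96 and 7.19 on regular arrays. The diets overlapped through 1 supplemented array, and the difference was -0.36 (SE 0.10, adjusted p = 0.00797). Cdca8, borealin, differed by -0.41 (SE 0.12, adjusted p = 0.0151), and the kinase of the complex, Aurkb, by -0.34 (SE 0.13, adjusted p = 0.0424). Aurkb did not pass in 5 of the 17 fits without 1 array (supplemented replicates 1, 4 and 5, regular replicates 1 and 2), with the adjusted p highest, at 0.126, without regular replicate 1, and with array spread as a covariate its difference had the opposite sign (0.02).

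**Figure D2:**
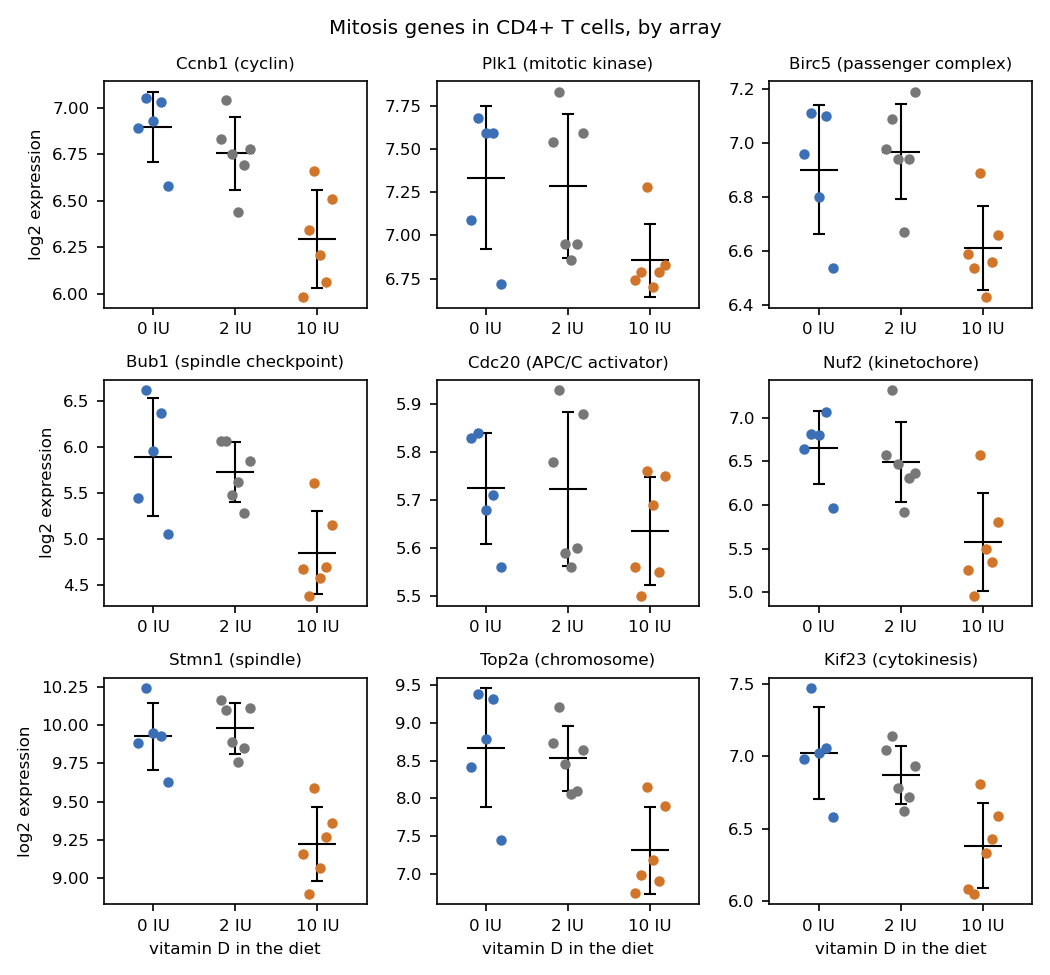
Log2 expression of 9 members on each array by vitamin D in the diet (0, 2 or 10 IU), with each point an array, the wide bar the mean of its diet and the error bar the SD (n = 5, 6 and 6). In Stmn1 the supplemented arrays, from 8.90 to 9.59, lie below every array of the other diets, whereas in Cdc20 the diets overlap, and the low deprived point in most panels is replicate 6.

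The checkpoint genes were mixed. Of the 4 tested 1 was lower, which is near the share of genes of like level that were (26.1%). Bub1, the kinase that recruits checkpoint proteins to kinetochores, was lower, with 4.39, 4.69 and 5.61 on supplemented arrays, and 5.29, 5.74 and 6.07 on regular arrays. Of the supplemented arrays 5 lay below every regular one. The difference was -0.88 (SE 0.22, adjusted p = 0.0045), a level 54.4% of that in the regular diet. Bub1b (BubR1) had -0.39 (SE 0.20, adjusted p = 0.127), and Bub3, their binding partner, had -0.14 (SE 0.07, adjusted p = 0.0912).

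Mad2l1, the checkpoint protein that holds Cdc20 inactive and the brightest of this group, had 7.65, 8.30 and 8.54 on supplemented arrays and 7.93, 8.26 and 8.52 on regular arrays. The diets overlapped and the difference was -0.04 (95% interval -0.29 to 0.21, adjusted p = 0.816). Ttk (Mps1), the kinase that starts checkpoint signalling, lay below the level filter with a mean of 4.59. Its values were 3.78, 4.11 and 4.34 on supplemented arrays and 4.47, 4.95 and 5.21 on regular arrays, so the diets did not overlap. In the fit of all genes without a level filter the difference of Ttk was -0.77 (SE 0.15, adjusted p = 0.000466). Nek2, Kif20a and Ect2, also below the filter, did not pass between the supplemented and regular diets in that fit. Their differences were -0.10 (SE 0.09, adjusted p = 0.417), -0.11 (SE 0.07, adjusted p = 0.285) and -0.28 (SE 0.13, adjusted p = 0.116).

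Cdc20 and Ube2c, the activator and the ubiquitin-conjugating enzyme of the anaphase-promoting complex, did not pass. Ube2c had 6.07, 6.34 and 6.66 on supplemented arrays and 6.27, 6.41 and 6.62 on regular arrays, a difference of -0.08 (95% interval -0.26 to 0.11). Cdc20 had 5.50, 5.63 and 5.76 on supplemented arrays and 5.56, 5.69 and 5.93 on regular arrays, a difference of -0.09 (95% interval -0.24 to 0.07). For both, the interval excludes a fall as large as that of Cdk1 or Ccnb1.

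The Ndc80 complex couples kinetochores to microtubules, and both of its measured subunits were lower, where 6.86% of genes of like level were. Nuf2 had 4.96, 5.42 and 6.57 on supplemented arrays and 5.92, 6.42 and 7.32 on regular arrays. The difference was -0.92 (SE 0.23, adjusted p = 0.00389), and 5 of the 6 supplemented arrays lay below every regular array. Ndc80 had 6.25, 6.45 and 6.75 on supplemented arrays and 6.56, 6.91 and 7.43 on regular arrays, a difference of -0.47 (SE 0.15, adjusted p = 0.021), which did not pass without regular replicate 2 (adjusted p = 0.0597) or without supplemented replicate 5.

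Of the 5 spindle genes, 4 were lower, where 16.9% of genes of like level were. Stmn1 (stathmin), which takes microtubules apart, was the member with the smallest p: 8.90, 9.22 and 9.59 on supplemented arrays, and 9.76, 10.0 and 10.16 on regular arrays. All 6 supplemented arrays lay below all 6 regular arrays, and the difference was -0.75 (SE 0.11, adjusted p = 1.8e-05). Tpx2, which targets Aurora A to the spindle, ran from 5.66 to 6.79 on supplemented and from 6.92 to 7.88 on regular arrays, again without overlap, with a difference of -1.15 (SE 0.21, adjusted p = 0.000323). These were the only members tested without overlap between these diets, 2 of 31, where 9.92% of all genes tested were below all regular arrays on the supplemented arrays. The motors Kif11 and Kif2c differed by -0.64 (SE 0.19, adjusted p = 0.012) and -0.28 (SE 0.11, adjusted p = 0.0472), and Kif2c did not pass in 10 of the 17 fits without 1 array: deprived replicates 2 and 4, supplemented replicates 1, 2, 4, 5 and 6, and regular replicates 1, 2 and 6 (highest adjusted p = 0.114, without regular replicate 2). Nusap1, a microtubule-bundling protein, had -0.39 (SE 0.20, adjusted p = 0.134).

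All 3 measured genes of chromosome structure were lower in the deposited values, where 50.4% of all genes of their level were. Smc2 and Smc4 form the core of condensin, which compacts chromosomes. Smc4 had 9.92, 10.12 and 10.28 on supplemented arrays, and 10.24, 10.38 and 10.45 on regular arrays, a difference of -0.27 (SE 0.07, adjusted p = 0.00645). Smc4 did not pass after quantile normalization (-0.10, adjusted p = 0.28) or cyclic loess (-0.08, adjusted p = 0.371). Smc2 had 8.24, 8.48 and 8.76 on supplemented arrays, and 8.71, 8.82 and 9.07 on regular arrays, a difference of -0.38 (SE 0.08, adjusted p = 0.00106). For both genes the supplemented and regular ranges overlapped at their edges, with 4 supplemented arrays of Smc4 and 5 of Smc2 below every regular array. Top2a, the topoisomerase that untangles sister chromatids, ran from 6.75 to 8.15 on supplemented and from 8.06 to 9.21 on regular arrays. It was at 42.9% of the regular level.

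The genes of the central spindle and cytokinesis were lower in all 3 members tested, where 5.2% of genes of like level were. Kif23, a motor of the centralspindlin complex, had 6.05, 6.38 and 6.81 on supplemented arrays and 6.62, 6.86 and 7.14 on regular arrays, a difference of -0.49 (SE 0.13, adjusted p = 0.007). Prc1, which bundles the microtubules of the central spindle, had 6.20, 6.41 and 6.87 on supplemented arrays and 6.77, 6.94 and 7.40 on regular arrays, a difference of -0.51 (SE 0.15, adjusted p = 0.0106). The ranges overlapped at their edges, with 5 supplemented arrays of Kif23 and 4 of Prc1 below every regular array. Racgap1, the partner of Kif23, differed by -0.28 (SE 0.09, adjusted p = 0.0164). Kif20a, another motor, and Ect2, which activates RhoA at the cleavage furrow, lay below the level filter with means of 5.05 and 4.62.

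The second comparison set the deprived diet against the regular diet. None of the 31 members passed, where 1.67% of all genes tested did (1.49% higher, 0.184% lower). An unadjusted p below 0.05 in limma was found for 2 members and for 1816 of the 10879 genes tested. The median difference was 0.06, and 21 of the 31 members had a positive sign, against 5425 of the 10879 genes. The smallest adjusted p was 0.131, for Smc4 with a difference of 0.22 (SE 0.07). Smc4 had log2 values of 10.69, 10.63, 10.61, 10.44 and 10.61 on the 5 deprived arrays, against 10.24, 10.38 and 10.45 (lowest, median, highest) on regular arrays, and 4 of the deprived arrays lay above every regular array. Smc4 passed in 2 other fits, with array weights (adjusted p = 0.0323) and with only those diets fitted (adjusted p = 0.0465). Smc2 was next, with 9.11, 9.22, 9.00, 9.07 and 8.98 on deprived arrays and 8.71 to 9.07 on regular arrays, a difference of 0.21 (SE 0.09, adjusted p = 0.202). For the members as a whole the 95% intervals reached from -0.49 to 0.75, and for 25 of the 31 they excluded differences of 0.5 in either direction.

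**Figure D3:**
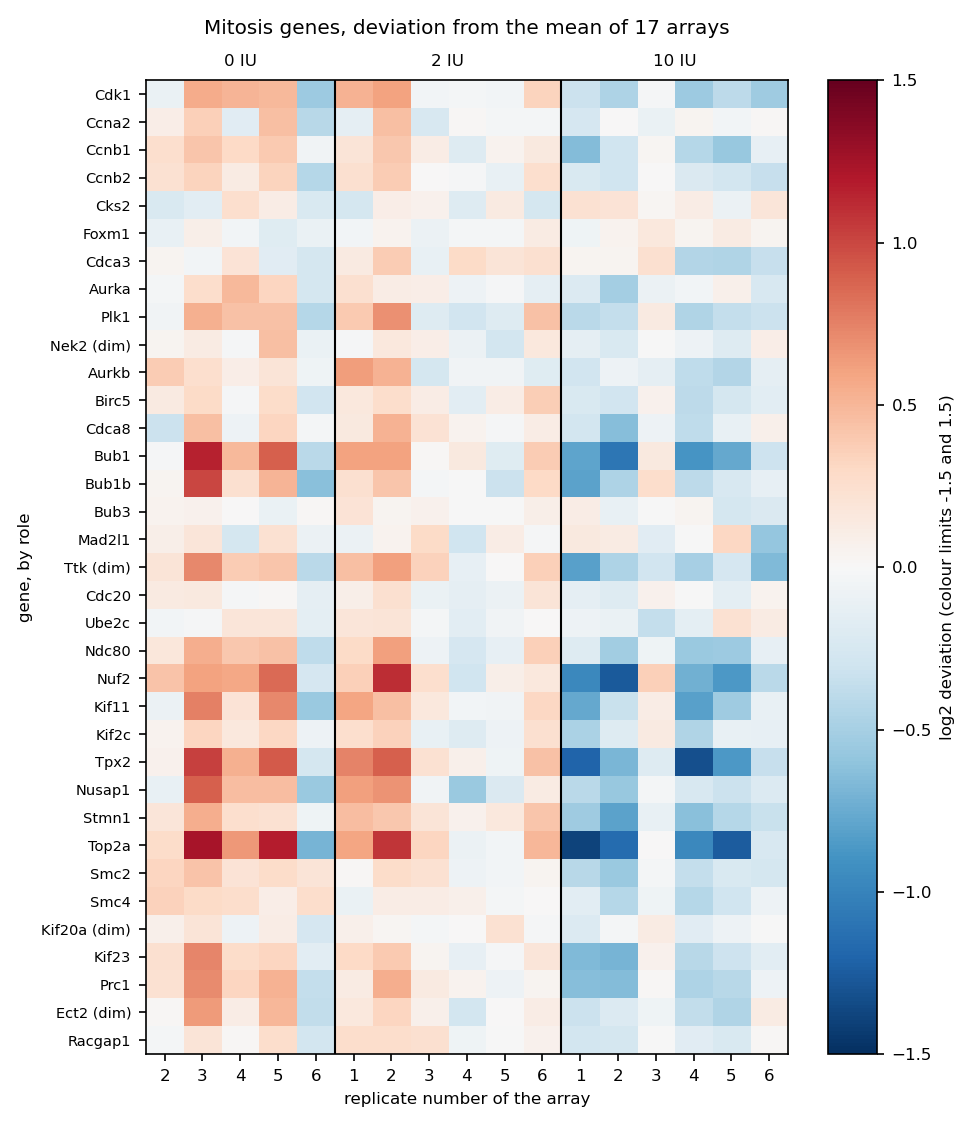
Log2 expression of each member with a row (down the page, by role) on each of the 17 arrays, as the difference from the mean of that gene over all arrays, with the arrays ordered by diet (0, 2, 10 IU) and replicate. The array of deprived replicate 6 is low across most members, and supplemented replicate 3 is the highest of the supplemented arrays.

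Supplementation was also compared with deprivation. This comparison shares the supplemented arrays with the first one, so the values are given side by side and not as a second piece of evidence. Of the 31 members, 21 were lower in the supplemented than in the deprived diet, none was higher and 10 did not pass, where 47.2% of all genes tested were called, 28.6% lower and 18.6% higher. The member median was -0.48. Top2a differed by -1.36 (SE 0.29) against the deprived diet and by -1.22 (SE 0.28) against the regular diet, and Bub1 by -1.04 (SE 0.23) and -0.88 (SE 0.22). Smc2 differed by -0.60 (SE 0.09) against the deprived diet and by -0.38 (SE 0.08) against the regular diet.

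On the deprived arrays Top2a had 8.42, 9.38, 8.79, 9.32 and 7.45, and the 7.45 of replicate 6 lay inside the range of the supplemented arrays. Ccnb1 had 6.89, 7.05, 6.93, 7.03 and 6.58 there, and differed by -0.60 (SE 0.12, adjusted p = 0.000263) between the supplemented and deprived diets. Stmn1 had 9.88, 10.24, 9.95, 9.93 and 9.63, all above the 8.90 to 9.59 of the supplemented arrays.

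Nuf2 had 6.64, 6.82, 6.80, 7.07 and 5.96 on the deprived arrays, and differed by -1.09 (SE 0.24, adjusted p = 0.000958). Bub1 had 5.45, 6.62, 5.96, 6.37 and 5.06 there, a range wider than that of Nuf2. Ndc80 had 6.98, 7.35, 7.22, 7.25 and 6.43, a difference of -0.57 (SE 0.16, adjusted p = 0.00613). In all 3 genes replicate 6 was the lowest deprived array and lay inside the supplemented range.

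Prc1 had 7.08, 7.56, 7.17, 7.37 and 6.49 on the deprived arrays, a difference of -0.65 (SE 0.15, adjusted p = 0.00157). Kif23 had 6.98, 7.47, 7.02, 7.06 and 6.58, a difference of -0.64 (SE 0.14, adjusted p = 0.000788). Both act in the central spindle, and for both 4 deprived arrays lay above every supplemented array. Ccnb2 had 7.08, 7.19, 6.98, 7.19 and 6.42 on the deprived arrays, a difference of -0.34 (SE 0.11, adjusted p = 0.0197). Birc5 had 6.96, 7.11, 6.80, 7.10 and 6.54, a difference of -0.29 (SE 0.10, adjusted p = 0.0241). For Ccnb2 replicate 6 lay below all supplemented arrays.

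Mad2l1 had 8.32, 8.41, 7.97, 8.46 and 8.15 on the deprived arrays, a difference of -0.06 (95% interval -0.33 to 0.20). Ube2c had 6.39, 6.41, 6.61, 6.61 and 6.28, and Cdc20 had 5.83, 5.84, 5.68, 5.71 and 5.56, with differences of -0.08 (95% interval -0.28 to 0.11) and -0.09 (95% interval -0.25 to 0.08). All 3 overlapped the supplemented range and did not pass. Aurkb, Stmn1, Smc2 and Smc4 were the members without overlap between these diets, 4 of 31, where 17.7% of all genes tested were below all deprived arrays on the supplemented arrays. Stmn1 was the 1 member of 31 with every supplemented array below every array of both other diets, where 8.5% of all genes tested were.

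Plk1 had 7.09, 7.68, 7.59, 7.59 and 6.72 on the deprived arrays, and replicate 6 lay inside the range of the supplemented arrays. Plk1 (-0.48, SE 0.18, adjusted p = 0.0318), Aurka (-0.32, SE 0.11, adjusted p = 0.0264), Bub1b (-0.53, SE 0.21, adjusted p = 0.0413) and Nusap1 (-0.52, SE 0.21, adjusted p = 0.0474) passed against the deprived diet. They were close to the threshold: without deprived replicate 3 the adjusted p rose above 0.05 for each of the 4, to 0.0944 for Plk1, 0.16 for Bub1b and 0.166 for Nusap1, and for Aurka it reached 0.0972 without deprived replicate 4. Plk1, Bub1b and Nusap1 also failed without deprived replicates 4 and 5 and supplemented replicates 1, 2, 4 and 5, Nusap1 moreover without supplemented replicate 6 and regular replicates 3 and 6, and Aurka without deprived replicate 5 and supplemented replicate 2. Without deprived replicate 3, Birc5, Ccnb2 and Kif11 did not pass, with adjusted p = 0.0758, 0.0627 and 0.0585. The same held without deprived replicate 5 for these 3, without deprived replicate 2 for Birc5 and Ccnb2, and without supplemented replicate 4 for Birc5. Cdca8 (-0.30, SE 0.13, adjusted p = 0.0618), Racgap1 (-0.18, SE 0.09, adjusted p = 0.0978) and Cdca3 (-0.10, SE 0.12, adjusted p = 0.497) did not pass against the deprived diet. The count of members passing ran from 14, without deprived replicate 5, to 22 when 1 array was left out.

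Over all 3 diets, limma's moderated F test passed for 21 of the 31 members, against 45.3% of all genes tested. The mean of the supplemented diet was the lowest of the 3 for 29 of the members. For 20 of these the order was supplemented, regular, deprived from low to high, and for 9 it was supplemented, deprived, regular. Since none of the members passed between the deprived and the regular diet, the order of those diets is not resolved.

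The members varied together between arrays of the same diet. The mean over the 31 members ran from 6.52 to 7.22 on deprived, from 6.68 to 7.19 on regular and from 6.36 to 6.78 on supplemented arrays, so the diets overlapped in that mean. Deprived replicate 6 lay 0.42 below the mean of its diet, with 2 of the 31 members above it, and deprived replicate 3 lay 0.28 above, with 29 above. Regular replicate 2 lay 0.29 above the mean of its diet (30 of 31 members), and supplemented replicate 3 lay 0.29 above (27 of 31 members). The member mean of deprived replicate 6, 6.518, was within the supplemented range, whereas the spread of its values, 2.052, was not. The lowest of the 17 arrays was a supplemented one for 26 of the 31 members, a deprived one for 4 and a regular one for 1. Neither this count nor the order of the diet means was taken over all genes, so no share stands beside them.

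**Figure D4:**
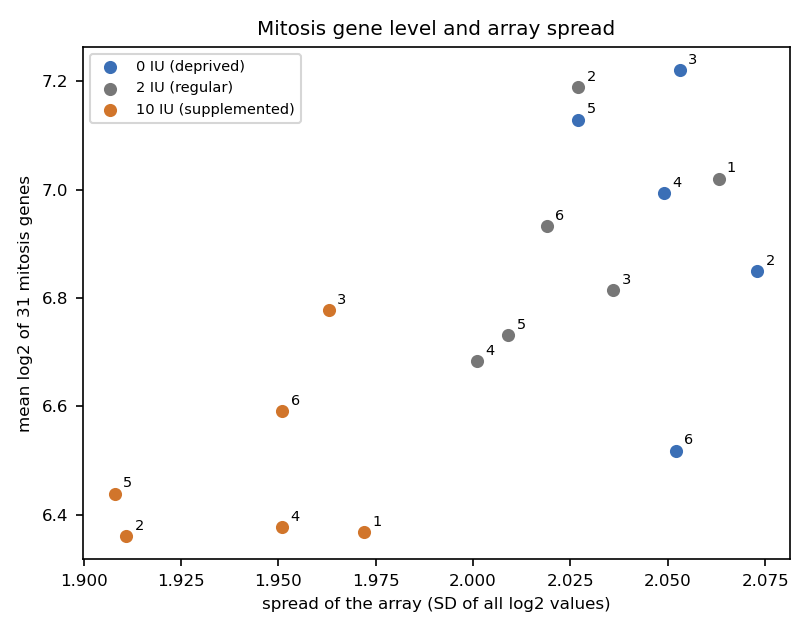
Mean log2 expression of the 31 members tested on each array against the spread of that array (SD of its log2 values), coloured by diet. The supplemented arrays lie at spreads of 1.908 to 1.972, to the left of every regular and deprived array, and their member means run from 6.36 to 6.78.

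Differences between the supplemented and regular diets depended on the level of a gene over all genes, so the members were also set beside genes of like level. Among all genes with a mean log2 value below 6, 1.87% were lower in the supplemented diet, and 6 of the 10 members in that range were. Between 6 and 7 the share was 6.86%, and 9 of 13 members were lower. From 7 to 8 it was 23.6%, and 1 of 2 members was lower. At 8 and above 50.4% of all genes were lower, and 4 of 6 members were (Stmn1, Top2a, Smc2 and Smc4), which is near that share. The median difference of genes below 6 was 0.11, and that of the 10 members there was -0.36. Below 7 the members' counts lay far from the share of all genes of like level.

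**Figure D5:**
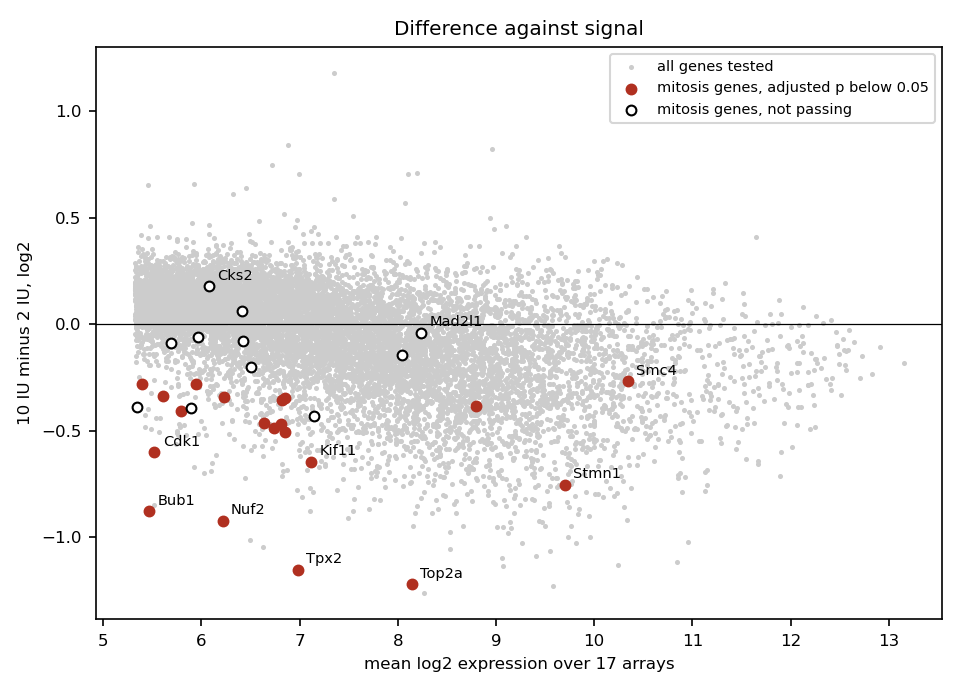
Difference in log2 expression between the supplemented and regular diets against the mean log2 level, for all 10879 genes tested (grey), the 20 members that passed (red) and the 11 that did not (open). Between levels of about 5.3 and 7 most members lie below 0, where the median of all genes lies above 0.

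Other genes of the pathway were counted in the same fit. Of 55 further mitosis genes tested, 21 were lower in the supplemented than in the regular diet, 2 higher and 32 did not pass, with a median of -0.16. For each list of this kind a share of genes of like level is given, which is the share of all genes tested that were called in the level ranges above, weighted by the number of the list's genes in each range. For the further mitosis genes 16.6% of genes of like level were lower, against 38.2% of the list. Tacc3, a spindle-stabilizing protein, differed by -0.50 (SE 0.08), Ska2, of the kinetochore, by -0.63 (SE 0.12), the GTPase Ran by -0.46 (SE 0.07) and the tubulin Tubb5 by -0.56 (SE 0.11). Of 12 genes of the anaphase-promoting complex tested, 6 were lower and 6 did not pass, with a median of -0.17, where 33.4% of genes of like level were lower. After quantile normalization or cyclic loess 3 of the 12 were lower and 1 was higher. Cdc26 differed by -0.52 (SE 0.08) and Anapc5 by -0.46 (SE 0.07).

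Cohesin, the ring that holds sister chromatids together, had 5 of 8 genes lower and 3 that did not pass, with a median of -0.27. Of these 8 genes 7 had a mean of 8 or more, and 47.1% of genes of like level were lower, so the count is near that share. After quantile normalization 4 of the 8 were lower and 2 were higher. Rad21 differed by -0.41 (SE 0.06) and Smc3 by -0.44 (SE 0.08). Stag1, another cohesin subunit, was lower in the supplemented than in the regular diet by -0.33 (SE 0.07), and it was the cohesin gene that was higher in the deprived than in the regular diet, by 0.34 (SE 0.07, adjusted p = 0.0167). Of 43 DNA replication genes, 23 were lower, none was higher and 20 did not pass, with a median of -0.28, where 20.6% of genes of like level were lower. The sliding clamp Pcna differed by -0.71 (SE 0.11), the helicase subunit Mcm7 by -0.63 (SE 0.09) and the primase subunit Prim1 by -0.47 (SE 0.08).

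Markers of other cells were counted in the same fit. The mean of 9 B cell markers ran from 5.88 to 6.00 on deprived, from 5.80 to 6.16 on regular and from 6.02 to 6.39 on supplemented arrays, and 5 of the 7 tested were higher in the supplemented than in the regular diet, where 14% of genes of like level were higher. After quantile normalization 3 of the 7 were higher, and after centring on the median 2 were higher and 1 lower. Cr2, the complement receptor, which had the smallest p of the list and is named with its values known, ran from 5.56 to 6.13 on supplemented and from 4.89 to 5.59 on regular arrays, a difference of 0.66 (SE 0.12, adjusted p = 0.000196). Of the brightest B cell markers, Cd79b, a signalling chain of the B cell receptor, had a difference of 0.20 (SE 0.08, adjusted p = 0.0584) and Cd22 one of -0.49 (SE 0.21, adjusted p = 0.0704). Ms4a1, the gene of CD20, lay below the level filter, with a mean of 5.12. Of 13 myeloid markers tested, 3 were higher (14.5% of genes of like level), 1 was lower and 9 did not pass. The mean of the 19 measured ran from 5.76 to 5.93 on deprived, from 5.80 to 5.89 on regular and from 5.93 to 5.98 on supplemented arrays. Of the 2 brightest, Ctss was the lower one, by -0.25 (SE 0.07, adjusted p = 0.00691), and Lyz2 had 0.04 (SE 0.13, adjusted p = 0.824). With the mean of the 7 tested B cell markers as a covariate, 23 members were called between the supplemented and regular diets. In that fit 32.6% of all genes were called, and the member median was -0.64. With the mean of the 13 tested myeloid markers, 13 members and 18.5% of all genes were called, with a member median of -0.43. Without a covariate 20 members and 33.7% of all genes were called, with a member median of -0.38. Cd4 was lower by -0.59 (SE 0.11, adjusted p = 0.000301), and 4 of the 9 T cell markers were lower, none higher. All 9 had a mean of 8 or more, where 50.4% of all genes were lower, so that count is near or below the share. After quantile normalization or cyclic loess 3 of the 9 were lower and 1 was higher. Of the other marker lists, 1 of 7 CD8 and NK cell genes was higher and 1 lower, 1 of 7 dendritic cell genes was lower, 1 of 4 plasma cell genes was higher, 1 of 9 stromal and endothelial genes was higher and 1 lower, 1 of 2 red blood cell genes was higher, and the 1 germinal centre B cell gene tested did not pass. Shares of genes of like level were between 11.3% and 17.1% for higher and between 14% and 20.3% for lower calls in the lists with such a call.

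Genes that are high in resting lymphocytes or slow the cell cycle were counted too. Of 10 tested, 6 were lower in the supplemented than in the regular diet and none was higher, with a median of -0.21, where 36.3% of genes of like level were lower. After quantile normalization or cyclic loess 3 were lower and 2 higher. In the deprived against the regular diet 2 of the 10 were higher, where 2.54% of genes of like level were. Slfn2, a regulator of T cell quiescence in mice, differed by -0.35 (SE 0.08, adjusted p = 0.00137) between the supplemented and regular diets, and Btg1, an antiproliferative gene, by -0.14 (SE 0.06, adjusted p = 0.0729). The part of the marker genes in the differences of the mitosis genes was not tested beyond these covariates.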

How the data were processed

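The deposited table holds log2 expression values for each transcript cluster on each array, and RMA and Partek 6.0 are the tools named, per the submitters' processing notes. No unit is written in the table, and log2 was inferred from its values (2.14 to 13.78). The sources used here give no genome build, probe file or scan batch, so no batch was tested, and the number of arrays limits the precision.

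Of 29214 transcript clusters, 15310 had 1 gene symbol in the platform annotation, 323 had several and 13581 were not listed. The RefSeq table for GRCr8 held the Entrez identifier of 15279 of the clusters with 1 symbol. Each of the 14506 genes was represented by its brightest cluster, and genes with a mean below 5.321 (the lowest 25%) were left out. Ccnb2 and Nek2 had 2 clusters. Diets were compared with lmFit and eBayes of limma 3.58.1 (R 4.3.3; residual degrees of freedom 14, prior 8.19) over all 17 arrays, with Benjamini-Hochberg adjustment; the script was tested on simulated data. Pairwise correlations of arrays ran from 0.9773 to 0.9954, and no 2 arrays were identical.

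The members and gene lists were chosen with earlier results of these data known. In each role the brightest member and the one with the smallest p in supplemented minus regular are given with the value of each deprived array and the lowest, median and highest of the 6 arrays of the other diets. The other mitosis, cohesin and replication lists are represented by up to 4 genes with the smallest p. B cell, myeloid and resting lymphocyte genes are represented by the 2 brightest, with Cr2 and Ms4a1 added. The remaining lists of other cells are given by counts. Alternatives were other normalizations, filters, moderation, array weights, covariates, the replicate number as a block, and fits without single arrays.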

Additional observations from a re-analysis of the deposited data

Results flagged for a closer look

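By Dixon's 95% criterion, 3 values lay apart from the other arrays of their diet, in 105 combinations of member and diet checked (2.86%; by chance about 5% would). Ccnb2 on deprived replicate 6 was the lowest of its diet at 6.42, with the nearest at 6.98. Plk1 on supplemented replicate 3 was the highest at 7.28, with the nearest at 6.83. Prc1 on regular replicate 2 was the highest at 7.40, with the nearest at 6.99.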

How the results depend on the processing

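Of 138 recomputed counts of members or other pathway genes, 127 stayed within 1.5 times the reported count, 9 were smaller and 2 larger. These counts were compared by size only, not by direction. The count for supplemented against regular was 13 with the lowest 50% of genes left out (16 members tested). It was 13 with the mean of the tested myeloid markers added to the fit. When supplemented replicates 2 and 5, the arrays with the smallest spread, were both left out, it was 11. With array spread as a covariate it was 0, as were those for supplemented against deprived and for the F test. Spread did not overlap between the supplemented diet and the others, so the 2 cannot be told apart. The F test called 13 members with the lowest 50% left out, 13 in the ordinary linear model and 11 without supplemented replicates 2 and 5. Shares of all genes called by the F test in these fits are not given here. Deprived against regular had 1 member, Smc4, with array weights and 1 with only the diets compared. Without 1 array, the counts ran from 16 to 22 for supplemented against regular, from 0 to 0 for deprived against regular, from 14 to 22 for supplemented against deprived and from 15 to 23 for the F test. With the replicate block the counts were 19, 0, 20 and 20 in the same order; residuals of same-numbered arrays correlated from -0.207 to 0.195, above 0.1 in 4 of 16 pairs, so the numbers were not taken as pairs. With spread as a covariate 6 of the 31 members had a positive sign against regular and 8 against deprived, against 2 and 2 as reported; among calls the sign turned for Aurkb against regular (0.0157), Aurkb against deprived (0.0479) and Nusap1 against deprived (0.0749). Centring each array on its median moved the median of all genes to -0.0779 against regular and -0.103 against deprived, with 312 genes higher and 3343 lower against regular (1173 and 2488 as reported), and called 22 members. Scaling arrays to the same SD gave 503 higher and 2480 lower, and 21 members. Quantile normalization and cyclic loess each called 19 members, without Smc4. Counts of the other pathway lists under each scaling were added after the data were seen: the genes of the anaphase-promoting complex that were lower numbered 3 under quantile normalization and 3 under cyclic loess (6 as reported).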
